A study of Danio rerio with 8 samples.

Results

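The miRNAs dre-miR-21, dre-miR-146a, dre-miR-146b and dre-miR-155 were followed in zebrafish embryos exposed to microcystin-RR (MC-RR), a cyclic peptide toxin of cyanobacteria that inhibits serine/threonine protein phosphatases. They were picked by probe name for their known roles in innate immune and stress responses, with earlier results of these data known. The study lists dre-miR-21 and dre-miR-146a among the miRNAs it found higher on these arrays. The members make up 4 of the 248 zebrafish miRNA probes on the chip. No star form of these miRNAs was among the probes. Total RNA came from whole embryos at 72 hours post-fertilisation (hpf). The 4 MC-RR arrays came from embryos microinjected in the yolk at an early cleavage stage with the single MC-RR dose that the study chose for its arrays. The 4 control arrays came from embryos labelled only as control. The study names an injection of the saline vehicle as the control of its vessel counts, and the sample labels do not give it for the arrays. Each array held 1 biological replicate. The number of embryos pooled per array, and which of the study's fish lines gave them, are not given in the sources used here. RNA of a whole embryo cannot tell apart more cells that hold a miRNA and more of it per cell.

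A miRNA pairs with its target mRNAs mainly through the seed, bases 2 to 8 from its 5′ end, and lowers their translation or stability. In mammals, miR-21 is induced in many forms of cell stress and inflammation and represses Pdcd4 and Sprouty genes, and in zebrafish it acts in heart valve formation. miR-146 is induced by NF-kB in mammalian immune cells and represses the Toll-like receptor adaptors Traf6 and Irak1, which forms a negative feedback loop. miR-155 is made from its own non-coding host transcript in activated mammalian macrophages and lymphocytes and represses Socs1.

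The sequences that the chip lists as targets of the 4 probes are shown with the seed in capitals, together with that of dre-miR-2194, the only other probe on the chip with the seed of a member.
dre-miR-21: uAGCUUAUcagacugguguuggc
dre-miR-146a: uGAGAACUgaauuccauagaugg
dre-miR-146b: uGAGAACUgaauuccaagggug
dre-miR-155: uUAAUGCUaaucgugauagggg
dre-miR-2194: gUAAUGCUucgacugauuggug

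dre-miR-146a and dre-miR-146b form 1 seed family and were identical over their first 16 bases. Counted from 1 at the 5′ end of dre-miR-146a, the substitutions towards dre-miR-146b were U17A, A18G and A20G, and dre-miR-146a was 1 base longer. The seed of dre-miR-21 was found in none of the 346 other probes. No probe lay within 3 edits of a member, the closest being the miR-146 probes, 4 edits apart. RefSeq (GRCz12tu) lists 2 genes for miR-21, dre-mir-21-1 between rps6kb1a and ptrh2 and dre-mir-21-2 between vmp1 and tubd1. As both may give the mature form, the probe cannot assign its signal to 1 of them. RefSeq places mir155 beside mrpl39, mir146a beside sufu and dre-mir-146b-1 between pcyox1l and ppp2r2bb. No coordinates are given, since no genome build was used for the arrays.

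The scanner output gives the mean intensity of 10 spots per probe. The median over the zebrafish probes was 199 to 375 on the control arrays and 106 to 384 on the MC-RR arrays. The median of the 206 blank spots was 58.1 to 179 and 45.3 to 166. The blank spots were uneven on control replicate 4, where their 95th percentile was 512. Probes for worm miRNAs that share no seed with a zebrafish probe, 8 in number, served as a second measure of signal without a target. Their 95th percentile on control replicate 4 was 43.3, and over the 8 arrays it ran from 43.3 to 169. On MC-RR replicate 2 the mean log2 signal of the skin miRNAs dre-miR-203a and dre-miR-205 was 7.54, against 11.62 to 12.19 on the other arrays. Low signals on this array were not limited to skin miRNAs. Within replicate number 2, MC-RR minus control was -4.99 for dre-miR-181b, -4.28 for dre-miR-1 and -4.06 for dre-miR-454b on the log2 scale. The mean of the 5 muscle miRNAs was 8.87 there, against 10.06 to 10.68 on the other MC-RR arrays. The members are therefore also given with control replicate 4 or MC-RR replicate 2 left out. Muscle, neural and endothelial miRNAs were detected, as in a whole embryo. Of the red blood cell miRNAs, dre-miR-451 was above the blank percentile on 4 MC-RR and 3 control arrays and dre-miR-144 on 0. The median log2 fold change was -0.59 for 5 muscle miRNAs, -0.48 for 2 neural and -1.02 for 2 skin miRNAs, with an unadjusted limma p under 0.05 for 0 of them, or for 1 (dre-miR-206, lower) in a fit blocked on replicate number. The endothelial dre-miR-126 had log2 signals of 11.25, 11.51, 10.92 and 10.87 in controls and 10.48, 10.79, 10.41 and 10.23 with MC-RR. All MC-RR arrays were below all controls, by 0.66 on average with an unadjusted limma p of 0.00955 and an adjusted p of 0.427. The remaining miR-126 probes of the chip were not lower on average. Mean log2 differences were 0.21 (dre-miR-126b), 0.13 (dre-miR-126b*) and 0.01 (dre-miR-126*), with MC-RR higher in 4, 4 and 3 of 4 pairs. Each had an unadjusted limma p above 0.05. The part of tissue composition in the members' values was not tested.

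dre-miR-21 and dre-miR-146a were higher on every MC-RR array than on any control array, by 2.78-fold and 2.42-fold on average. dre-miR-146b, of the same seed family, lay near the background with overlapping groups, and dre-miR-155 lay at it. The normalized signals behind these values are log2 intensities after a normexp background correction (offset 50), averaged over spots and fitted to each other by cyclic loess. Tests were run on miRNAs brighter than the 95th percentile of blank spots on 4 or more of the 8 arrays. These were 187, with 3 of the members among them, and dre-miR-155 was left untested. In limma, 0 of the 187 (0%) passed an adjusted p of 0.05, and 16 (8.56%) had an unadjusted p under 0.05, of which 8 (4.28%) were higher with MC-RR. dre-miR-21 and dre-miR-146a were among those 8, and dre-miR-146b was not. The signals of both groups were fully separate for 6 of the 187 (3.21%), and with MC-RR higher for 4 (2.14%), again with dre-miR-21 and dre-miR-146a among them. All 3 tested members had a log2 fold change above 0, as did 87 of the 187 (46.5%).

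dre-miR-21 was well above the background on every array. Control replicates 1 to 4 had a scanner intensity of 5154, 3365, 4595 and 1371, and MC-RR replicates 1 to 4 one of 27075, 3578, 14037 and 7414. In these raw values MC-RR replicate 2 lay under control replicates 1 and 3, so that the groups overlapped, but each MC-RR array was above the control array with its number. After normalization the log2 signals were 12.03, 11.58, 11.44 and 11.01 in controls and 13.93, 12.24, 13.08 and 12.70 with MC-RR. Every MC-RR array was then above every control array, with the smallest gap between MC-RR replicate 2 and control replicate 1.

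For dre-miR-21, MC-RR arrays had a mean log2 signal of 12.99 ± 0.72 and control arrays one of 11.52 ± 0.42 (SD, n = 4 each). Their difference, the log2 fold change, was 1.47 (standard error 0.37, 95% interval 0.62 to 2.33). limma gave p = 0.00406, adjusted p = 0.379, and the exact permutation test, two-sided, gave 0.0286, the smallest p that 4 arrays against 4 allow. That test exchanged group labels over all arrays and took no account of the replicate numbers. With labels exchanged only within the 4 numbers, a two-sided p under 0.05 could not be reached. Within the replicate numbers 1 to 4 the normalized MC-RR signal was 3.74, 1.58, 3.12 and 3.22 times the control signal. The normalized table deposited for the same arrays gave 18870, 5392, 10130 and 7627 with MC-RR and 4588, 3588, 3278 and 2364 in controls, also without overlap. Leaving out control replicate 4 gave a log2 fold change of 1.31, and leaving out MC-RR replicate 2 gave 1.76, both with an unadjusted limma p under 0.05.

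**Figure D1:**
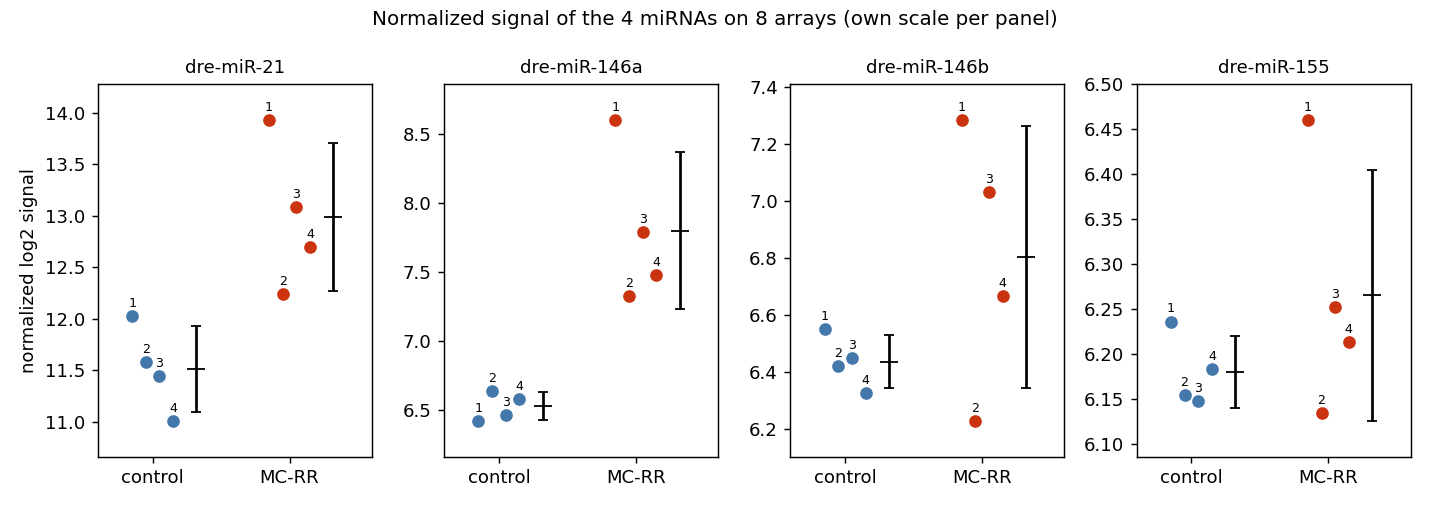
Normalized log2 signal (y axis, its own scale in each panel) of the 4 miRNAs on the control and MC-RR arrays, with the replicate number at each point and the mean with its SD (n = 4) as a bar. The groups do not overlap for dre-miR-21 and dre-miR-146a, and overlap for dre-miR-146b and dre-miR-155, where MC-RR replicate 2 lies under every control array.

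dre-miR-146a was dim in controls and brighter with MC-RR. Scanner intensities were 87.1, 115, 98.3 and 54.7 for the 4 control replicates in order, and 526, 95.9, 231 and 142 for the 4 MC-RR replicates. The raw intensity on MC-RR replicate 2 was below that on control replicates 2 and 3. That array was dimmer as a whole, and after subtraction of each array's worm-probe median the values were 12.2, 35.7, 47.6 and 17.8 in controls and 367, 55.2, 184 and 100.4 with MC-RR, without overlap. The probe was above the blank percentile on 4 MC-RR and 2 control arrays, and above the worm-probe percentile on all 8 arrays. The spots of the probe on 1 array had a coefficient of variation of 5.87% to 9.77%.

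Normalized, dre-miR-146a had log2 signals of 6.42, 6.64, 6.46 and 6.58 in controls and 8.60, 7.33, 7.79 and 7.48 with MC-RR. The means were 6.52 ± 0.10 and 7.80 ± 0.57 (SD, n = 4), so that the MC-RR arrays were spread more widely than the controls. This put MC-RR higher by 1.27 on the log2 scale (standard error 0.27, 95% interval 0.65 to 1.90). limma gave p = 0.00149, adjusted p = 0.279, and 0.0286 came from the exact permutation test. Within the replicate numbers the fold was 4.54, 1.61, 2.51 and 1.86. Without MC-RR replicate 1, the highest array, the log2 fold change was 1.0 with a limma p of 0.000688 (adjusted 0.129). It was 1.43 when MC-RR replicate 2 was left out and 1.30 when control replicate 4 was.

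The size of the dre-miR-146a difference depended on how the background was taken off, as the control level was close to it. The log2 fold change was 1.70 with an offset of 16, 2.06 with an offset of 1, 2.73 after subtraction of the worm-probe median and 3.58 after subtraction of the blank median. On the deposited normalized table it was 2.65, with values of 306, 160, 136 and 99.5 on the MC-RR arrays and 18.0, 34.4, 31.9 and 21.7 on the control arrays. On that table the adjusted limma p was 0.0202, with no background correction it was 0.0469 and with the offset of 1 it was 0.0461, over alternatives that ranged from 0.0202 to 0.994.

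**Figure D2:**
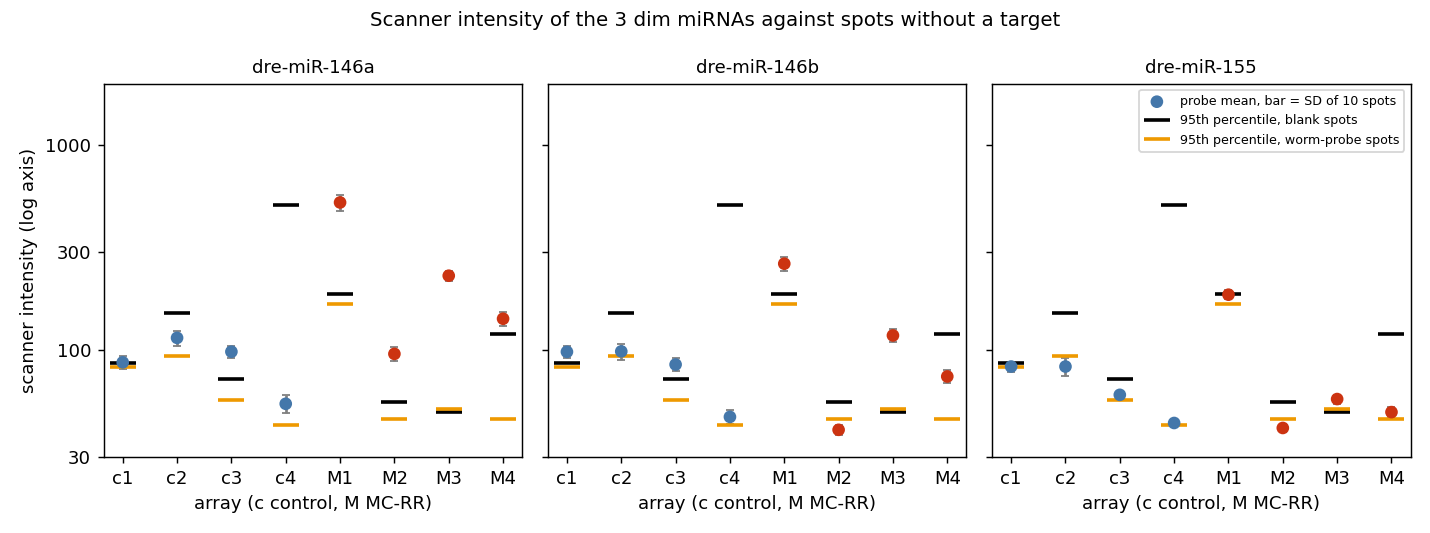
Scanner intensity (y axis, log scale) of dre-miR-146a, dre-miR-146b and dre-miR-155 on control (c) and MC-RR (M) arrays 1 to 4, with the SD over 10 spots, beside the 95th percentile of the blank spots and of the worm-probe spots on each array. dre-miR-146a clears the worm-probe mark on all 8 arrays, and dre-miR-155 stays close to it throughout.

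dre-miR-146b was near the background in both groups. Its control intensities were 98.1, 98.6, 85.1 and 47.2, and the MC-RR intensities 264, 40.8, 118 and 74.4. It was above the blank percentile on 2 arrays of each group, and above the worm-probe percentile on 4 control and 3 MC-RR arrays. On MC-RR replicate 2 it was 0.178 above the worm-probe median, where dre-miR-146a was 55.2 above it.

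The normalized log2 signal of dre-miR-146b was 6.55, 6.42, 6.45 and 6.33 in controls and 7.29, 6.23, 7.03 and 6.67 with MC-RR. MC-RR replicates 1, 3 and 4 were above all controls and replicate 2 was below all of them. MC-RR was higher by 0.37 on the log2 scale (standard error 0.23, 95% interval -0.16 to 0.90). The limma p was 0.148 (adjusted 0.774) and the exact permutation p was 0.200. Its value rested on single MC-RR arrays. Without MC-RR replicate 2 it was 0.55 with a limma p of 0.0198, not under 0.05 after adjustment (0.460), whereas leaving out MC-RR replicate 1 gave 0.20 and leaving out control replicate 4 gave 0.34.

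The difference between the family members was tested directly on the signal of dre-miR-146a minus that of dre-miR-146b on each array. This difference was higher with MC-RR than in controls by 0.91 on the log2 scale, at 1.0 ± 0.26 against 0.09 ± 0.18 (SD, n = 4). It was higher by 1.45, 0.88, 0.74 and 0.56 within replicate numbers 1 to 4. The exact permutation test, which took no account of these numbers, gave p = 0.0286. With 1 array left out it lay between 0.80 and 0.98, but its size depended on the background treatment. It was 1.55 with an offset of 1, 2.17 on the deposited table, 2.29 after subtraction of the worm-probe median and 3.55 after subtraction of the blank median, where the exact p was 0.0571. As the probes share their first 16 bases, each may take up some of the other miRNA, and the extent of this was not tested.

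dre-miR-155 was at the background. Its scanner intensity was 83.2, 83.2, 60.5 and 44.1 on the control arrays and 187, 41.7, 57.7 and 49.8 on the MC-RR arrays. It exceeded the blank percentile on 1 MC-RR array, replicate 3, and on 0 control arrays, so by that limit the control group gives only a bound. The bound on the fold was under 1, and no fold is given. It was above the worm-probe percentile on 3 arrays of each group. Fitted without the detection filter, dre-miR-155 had a limma p of 0.345 (adjusted 0.869). Normalized log2 signals averaged 6.27 ± 0.14 on MC-RR arrays and 6.18 ± 0.04 on control arrays (SD, n = 4 each), with overlap, and a difference in dre-miR-155 was not detectable at this signal. The difference of the means was 0.08, against 0.09 when control replicate 4 was left out and 0.13 when MC-RR replicate 2 was. dre-miR-2194, which shares its seed and was not in the naming rule, was above neither percentile on any array.

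**Figure D3:**
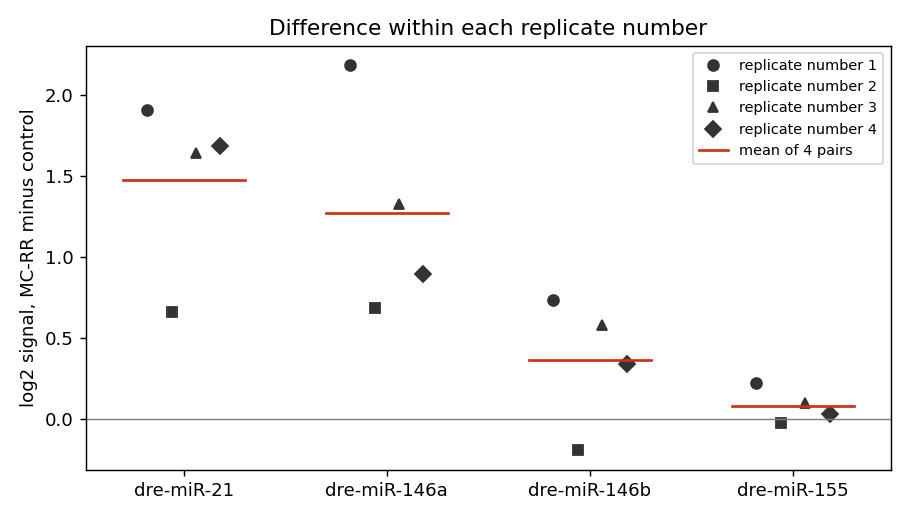
Normalized log2 signal of the MC-RR array minus that of the control array with the same replicate number (y axis) for each miRNA, with the mean of the 4 pairs as a line. All 4 differences lie above 0 for dre-miR-21 and dre-miR-146a, and replicate number 2 has the lowest difference for each of the 4 miRNAs.

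The deposited description speaks of paired embryos, and over the 187 tested miRNAs the deviations of same-numbered arrays from their group means were positively correlated, least for number 2 (r = 0.29). Of the 187 tested miRNAs, 24 (12.8%) were higher with MC-RR in all 4 pairs, and dre-miR-21 and dre-miR-146a were among them. dre-miR-146b and dre-miR-155 were higher in 3 of 4 pairs, with differences of -0.19 and -0.02 in replicate number 2. In a limma fit blocked on replicate number, the standard error of dre-miR-21 was 0.23 in place of 0.37, with a p of 0.00154 and an adjusted p of 0.0958. For dre-miR-146a the block gave a p of 0.00566 (adjusted 0.170) and for dre-miR-146b 0.0982 (adjusted 0.377). With the block 30 of the 187 (16%) were past the unadjusted threshold, of which 11 (5.88%) were higher, dre-miR-21 and dre-miR-146a among them, and 0 (0%) passed after adjustment.

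The members varied together over the MC-RR arrays. All 4 were highest on replicate 1, followed by replicates 3, 4 and 2, an order that 18 of the 187 tested miRNAs (9.63%) showed. On the table as deposited, all members but 1 had this order, the exception being dre-miR-146a, whose replicate 2 was its second highest. Of the 187 tested miRNAs, 12 (6.42%) had the order on that table. Over the 8 arrays the Pearson correlation was 0.94 between dre-miR-21 and dre-miR-146a, 0.88 between dre-miR-21 and dre-miR-146b and 0.81 between dre-miR-146a and dre-miR-146b. After removal of the group means these were 0.79, 0.91 and 0.84. The points share arrays, normalization and replicate numbers, and the correlations are a description only. The blank spots moved in part with this order, with a median of 166 on MC-RR replicate 1, 91.9 on replicate 4, 48.3 on replicate 2 and 45.3 on replicate 3. The worm-probe median followed the order in full, at 159, 47.1, 42.0 and 40.7 on MC-RR replicates 1, 3, 4 and 2. So did the median over the zebrafish probes, at 384, 324, 233 and 106. The part of the background and of array brightness in the shared order was not tested.

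Among the tested miRNAs, those most like dre-miR-21 over the 8 arrays were dre-miR-146a (r = 0.94), dre-miR-733 (0.92) and dre-miR-430c (0.92), a member of the family that clears maternal mRNAs in early zebrafish embryos. Those most like dre-miR-146a were dre-miR-21, dre-miR-182 (0.93), which belongs to a cluster of sensory organs, and dre-miR-733 (0.91). dre-miR-182 was higher with MC-RR by 0.41, but its cluster mates dre-miR-183 (-0.52) and dre-miR-96 (-0.56) were lower. Their unadjusted limma p was 0.0442 and 0.0239 (adjusted 0.516 and 0.427). Most like dre-miR-146b were dre-miR-29a (0.90), dre-miR-21 and dre-miR-146a. The dre-miR-29a signal was 6.74 to 7.12 in controls and 7.96, 6.45, 7.89 and 7.68 with MC-RR. As for dre-miR-146b, it was lowest of all arrays on MC-RR replicate 2. Most like dre-miR-155, which was at the background, were dre-miR-146b (0.90), dre-miR-18a (0.89), of the growth-associated miR-17 cluster, and dre-miR-1788 (0.83).

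**Figure D4:**
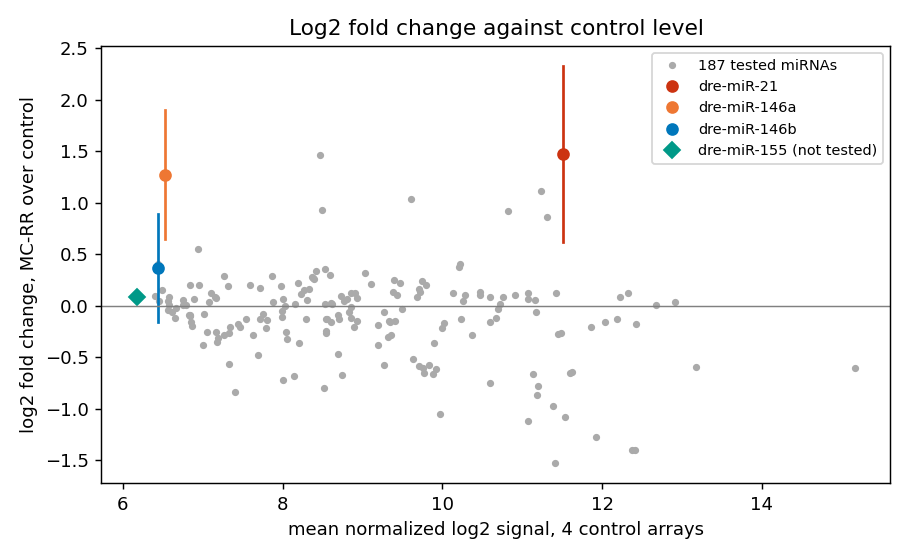
Difference of the mean log2 signals, MC-RR minus control (y axis), against the mean normalized log2 signal on the control arrays (x axis) for the 187 tested miRNAs, with the members in colour and 95% intervals from limma as lines. dre-miR-21 at 1.47 and dre-miR-146a at 1.27 lie at the top of the range, and dre-miR-146b at 0.37 has an interval that includes 0.

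Of other miRNAs with known immune roles, some were higher and some lower with MC-RR. A list of 18 held several miRNAs that the study picked from these arrays, and 14 of the 18 were tested. Of these 14, 4 had a log2 fold change above 0, against 87 of all 187 tested miRNAs (46.5%). These 4 were dre-miR-223, dre-miR-150, dre-miR-199 and dre-miR-29a. Those under 0 included all listed miR-125 and miR-181 probes and dre-miR-9, which also served as a neural miRNA. The untested dre-miR-29b and miR-142 probes had log2 differences of 0.05 to 0.18. At the unadjusted threshold 0 of the 14 were higher and 4 were lower with MC-RR, and 0 passed after adjustment. Over all 187, 8 (4.28%) were higher and 8 (4.28%) were lower at that threshold. In the blocked fit 1 of the list was higher (dre-miR-223) and 5 were lower, the added one being dre-miR-125c (-0.97, block p 0.0141 in limma). Over all 187 the blocked fit had 11 (5.88%) higher and 19 lower. The median log2 fold change of the list was -0.41, against -0.06 over all 187. The 4 lower miRNAs were dre-miR-125a (-1.27), dre-miR-125b (-1.08), dre-miR-181a (-1.12) and dre-miR-181c (-0.65), with limma p of 0.0194, 0.0348, 0.0209 and 0.0220. The mean of dre-miR-181a leaned on replicate number 2, as its differences within numbers 1 to 4 were -0.61, -2.71, -0.53 and -0.61. All 4 belong to the miR-125 and miR-181 families, and uptake of a family member by the probe of another was not tested. In mammals miR-125b restrains TNF and p53, and miR-181a tunes T cell signalling. Of 5 stress miRNAs of the miR-34 and miR-210 groups, which respond to p53 and to hypoxia, 4 were tested, 0 were past the unadjusted threshold in either direction and the median log2 fold change was 0.19. The blocked limma fit put 2 of them past it, both higher, dre-miR-210 (0.32) with a p of 0.0463 and dre-miR-210* (0.33) with 0.0222.

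Markers of white blood cells were measured beside the members. dre-miR-223, a marker of neutrophils and other myeloid cells, had log2 signals of 8.18, 7.12, 8.14 and 10.52 in controls and 8.97, 8.30, 8.47 and 11.94 with MC-RR. It was higher in 4 of 4 pairs, but both replicate 4 arrays stood far above the rest and the groups overlapped. MC-RR was higher by 0.93 on the log2 scale (standard error 0.96), with a limma p of 0.362. In the blocked limma fit the standard error was 0.20 and the p 0.00639 (adjusted 0.170), past the unadjusted threshold. The 3 miR-142 probes, pan-leukocyte markers, were each above the blank percentile on 1 MC-RR and 0 control arrays. Above the worm-probe percentile were dre-miR-142a-3p on 3 MC-RR and 2 control arrays and dre-miR-142a-5p on 3 and 1. For dre-miR-142b-5p these counts were 1 and 0. The mean log2 signal of these 4 probes ran from 6.31 to 7.22 in controls and from 6.66 to 7.62 with MC-RR. dre-miR-21 and dre-miR-146a were also higher in 4 of 4 pairs, as were 24 of the 187 tested miRNAs (12.8%). The part of leukocyte number in the differences of dre-miR-21 and dre-miR-146a was not tested.

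**Figure D5:**
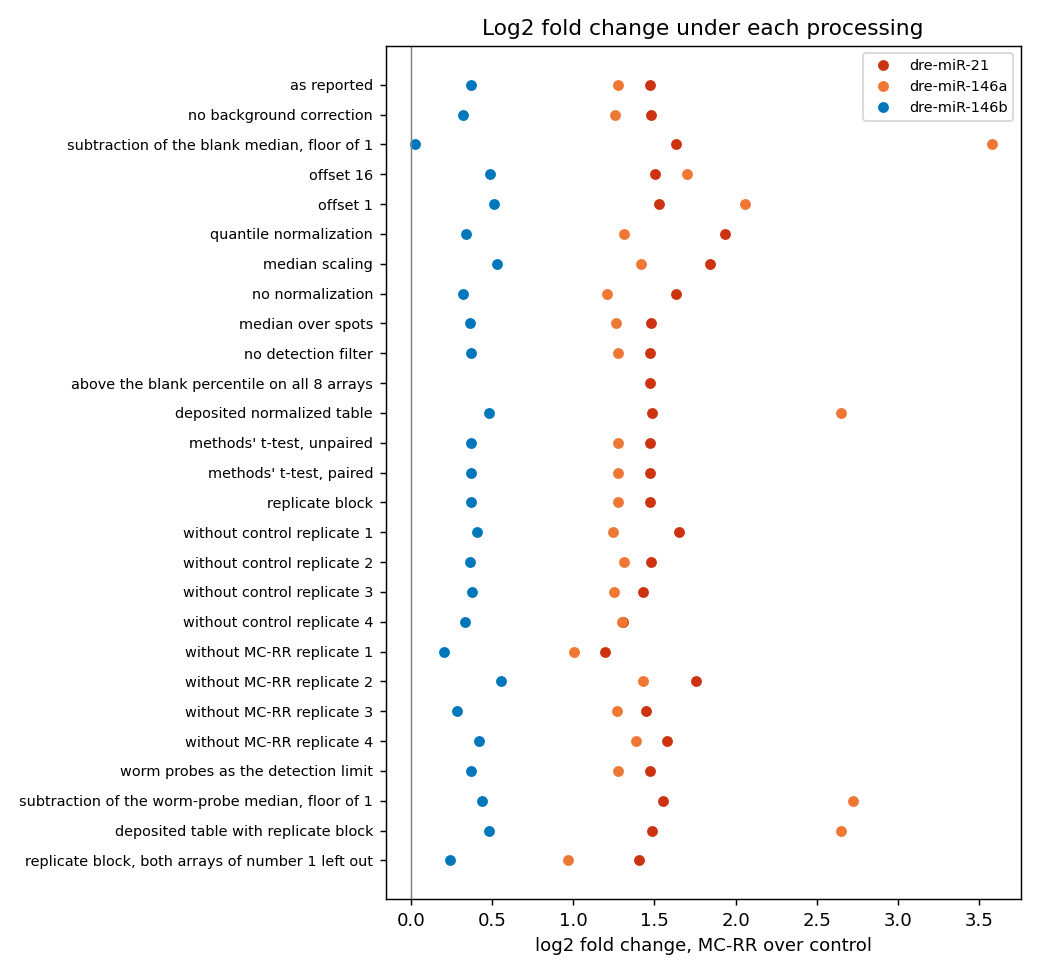
Log2 fold change with MC-RR (x axis) for the 3 tested members under the processing as reported and under each alternative (y axis). dre-miR-21 stays between 1.20 and 1.93, and dre-miR-146b lies between 0.02 and 0.55. dre-miR-146a is lowest, at 0.97, in the blocked fit with both arrays of number 1 left out. With the treatment of the background it spreads from 1.26 (no correction) to 3.58 (subtraction of the blank median).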

How the data were processed

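The scanner files deposited by the authors hold the linear mean intensity of each spot, read from Cy5 scans of 1 chip per sample without background subtraction or normalization. A second deposited table holds linear intensity per probe after the service provider's background subtraction and LOWESS filter. In R 4.3.3 with limma 3.58.1, foreground intensities of all spots were corrected by normexp (offset 50), log2-transformed, averaged over 10 spots and normalized by cyclic loess over the 248 zebrafish probes. The offset compresses the differences of dim probes. Groups were compared with lmFit and eBayes, Benjamini-Hochberg adjusted over 187 tested miRNAs, and single values by two-sided exact permutation tests. The permutation tests exchanged group labels over all arrays and not within replicate numbers, where 4 pairs could not give a two-sided p under 0.05. The limma script was tested on simulated data. The methods' t-test, other backgrounds, offsets, normalizations, filters and single arrays left out were alternatives, and those on worm probes, the blocked deposited table and the block without replicate number 1 were chosen after seeing the data. The deviations of same-numbered arrays from their group means correlated at 0.58, 0.29, 0.53 and 0.78 over the 187 miRNAs. The main limma fit took no account of the replicate numbers, and the fit blocked on them is given beside it. The members and lists were chosen with earlier results of these data known. Besides the members, the text names seed and probe neighbours, the 3 most correlated tested miRNAs by member and list miRNAs past the unadjusted threshold (with or without the block), dre-miR-223 and the miR-142 probes. Also named are cell type markers, other miR-126 probes, the cluster mates of dre-miR-182, some miRNAs low on MC-RR replicate 2 and some other list miRNAs. The number of arrays limits the precision. Slides are not given in the sources used here.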

Additional observations from a re-analysis of the deposited data

How the results depend on the processing

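dre-miR-21 was higher with MC-RR, with an unadjusted p under 0.05, under all 26 alternatives, and its adjusted p was never under 0.05 (0.0956 to 0.994). dre-miR-146a was also higher with an unadjusted p under 0.05 under all 25 of its alternatives, and its adjusted p fell under 0.05 with no background correction (log2 fold change 1.26), an offset of 1 (2.06), the deposited normalized table (2.65) and that table with the replicate block (2.65). dre-miR-146b was higher under all 25, with an unadjusted p under 0.05 in 1, without MC-RR replicate 2. dre-miR-146a and dre-miR-146b could not be tested with the filter on all 8 arrays. For dre-miR-155, the log2 difference of 0.08 moved to 0.48 with subtraction of the blank median, 0.26 with median scaling and 0.29 on the deposited table. The difference of 0.91 between the miR-146 probes became 3.55 with subtraction of the blank median, with an exact p of 0.0571, where values under the blank median rest on a floor. With 1 array left out the exact test was not run, and only values were compared. The count at the unadjusted threshold, 16, was 10 with subtraction of the blank median, 3 with no normalization, 29 with the paired methods' t-test, 30 with the replicate block, 30 with the block on the deposited table and 25 with the block and both arrays of number 1 left out. The number after adjustment, 0, was 1 with no background correction, an offset of 1 and the deposited table, and 4 with the block on that table. The block changed no call of the members. Among the listed miRNAs it put dre-miR-223, dre-miR-125c, dre-miR-206, dre-miR-210 and dre-miR-210* past the unadjusted threshold. With each array left out in turn, log2 fold changes ran from 1.20 to 1.76 for dre-miR-21, 1.0 to 1.43 for dre-miR-146a, 0.20 to 0.55 for dre-miR-146b and 0.02 to 0.13 for dre-miR-155, the miR-146 difference from 0.80 to 0.98, and the count at the unadjusted threshold from 7 (without control replicate 3) to 18. It was 9 without control replicate 2 and 10 without MC-RR replicate 1. The signal over background limits dre-miR-146a in controls, and dre-miR-146b and dre-miR-155 in both groups. The cause of these shifts was not tested.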
